A study of Mus musculus with 8 samples.

Results

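Urokinase plasminogen activator (Plau), tissue plasminogen activator (Plat), the urokinase receptor (Plaur) and protease nexin 1 (Serpine2) were followed through a reprogramming experiment in mouse cells. They were taken by gene symbol, and each matched 1 row, 4 of the 26930 genes in the count table. RNA was read from 8 libraries of mouse embryonic fibroblasts (MEFs) at day 8 of reprogramming, in the medium called AGi, with the factors Oct4, Klf4, Sox2 and c-Myc (OKSM). Cells were either wild type (WT, where the library names carry the word H3) or K36M, a histone H3 that has methionine in place of lysine at residue 36 and that is known to block methylation of that residue. Each genotype received either 250 nM Repsox, which blocks the kinase of TGF-beta's type I receptor, or 2.5 ng/ml recombinant TGFb-1, the ligand of that receptor. This gave 4 groups of 2 libraries each: WT with Repsox, WT with TGF-beta, K36M with Repsox and K36M with TGF-beta. A group with neither agent was not analysed here, so an effect of the medium is the difference between ligand and inhibitor. Whether paired libraries stem from different animals or cultures is not in the labels. The p-values therefore rest on the spread between these libraries, which may be technical, and on spread shared across genes. The labels also do not say how K36M was brought into the cells. Gene counts do not separate the mutant transcript from the normal one, so the genotype label was not checked.

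Plasminogen activation is a proteolytic cascade outside the cell. Urokinase and tissue plasminogen activator cut plasminogen into plasmin, which degrades fibrin and matrix proteins and activates other proteases and growth factors. The urokinase receptor, anchored in the membrane by a lipid, holds urokinase at the cell surface, and serpins such as protease nexin 1 trap the activators and thrombin and are cleared with them by receptors of the LDL receptor family. Fibroblasts are a familiar source of these proteins, and TGF-beta is a well-known regulator of the system.

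The 4 genes lie on different chromosomes. In mm9 coordinates with the GENCODE vM1 annotation, Plau (ENSMUSG00000021822) spans chr14:21655884-21662610 on the plus strand with 11 exons, and Plat (ENSMUSG00000031538) spans chr8:23868216-23893319 on the plus strand with 14. Plaur (ENSMUSG00000046223) spans chr7:25247519-25260892 on the plus strand with 7 exons. Serpine2 (ENSMUSG00000026249) spans chr1:79790772-79855271 on the minus strand, with 9 exon blocks over 2 transcripts. No other annotated gene overlapped any of them, on either strand.

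RefSeq's promoter table (build GRCm38.p6) matched 2 of the 4 by symbol, Serpine2 and Plaur; Plau and Plat had no entry. The sequences of Serpine2 and Plaur are therefore the ones shown. The bases from -250 to -51 before the start are printed 5′ to 3′ on the gene's own strand, at chr1:79858716-79858915 (minus) for Serpine2 and at chr7:24462233-24462432 (plus) for Plaur. Capitals mark matches, on either strand, to the AP-1 motif TGANTCA and to the Smad motif CAGAC, the binding sequences of the factors that commonly act downstream of growth factor and TGF-beta signals.
Serpine2: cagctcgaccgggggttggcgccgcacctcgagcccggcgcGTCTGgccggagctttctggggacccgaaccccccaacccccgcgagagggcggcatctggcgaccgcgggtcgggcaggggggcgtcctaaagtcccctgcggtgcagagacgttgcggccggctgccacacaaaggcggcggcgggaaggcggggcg
Plaur: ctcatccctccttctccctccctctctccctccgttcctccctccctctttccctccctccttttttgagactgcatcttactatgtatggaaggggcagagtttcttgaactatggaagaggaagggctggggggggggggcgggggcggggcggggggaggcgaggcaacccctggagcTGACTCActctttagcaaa
The search covered all 250 bases before the start. The Plaur window held 1 AP-1 match, at positions -69 to -63, and no Smad match. The Serpine2 window held 1 Smad match, on the reverse strand at positions -209 to -205, and no AP-1 match. Of 32851 promoters searched the same way, 6.7% held the AP-1 motif and 42.2% the Smad motif. The GC box GGGCGG, the motif of Sp factors, matched at 6 places in Serpine2, 5 of them between -55 and -8, and at 3 in Plaur, with neighbouring matches sharing 1 base in each, against 32.7% of promoters with any match. Neither window held TATAAA, found in 12.4% of promoters. GC content was 78.8% in the Serpine2 window and 59.6% in that of Plaur, against a median of 52.4%. These matches describe letters in a window and were not tested against the expression values.

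All 4 genes passed the filter on low counts and were tested among 15789 genes, over libraries of 10928302 to 15594217 counts. A gene was called where edgeR's quasi-likelihood F test gave an adjusted p under 0.05 (Benjamini-Hochberg over all genes tested). Levels are in CPM, a gene's count relative to its library's total after TMM scaling. Both activators and the serpin were lower in K36M than in WT cells with Repsox, while with TGF-beta the receptor was lower and the serpin higher. TGF-beta against Repsox went with less Plat and Serpine2 and more Plaur in WT cells, and with more Plau and Serpine2 and less Plaur in K36M cells. The comparisons share libraries: each group enters 1 comparison of genotypes and 1 of media.

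**Figure D1:**
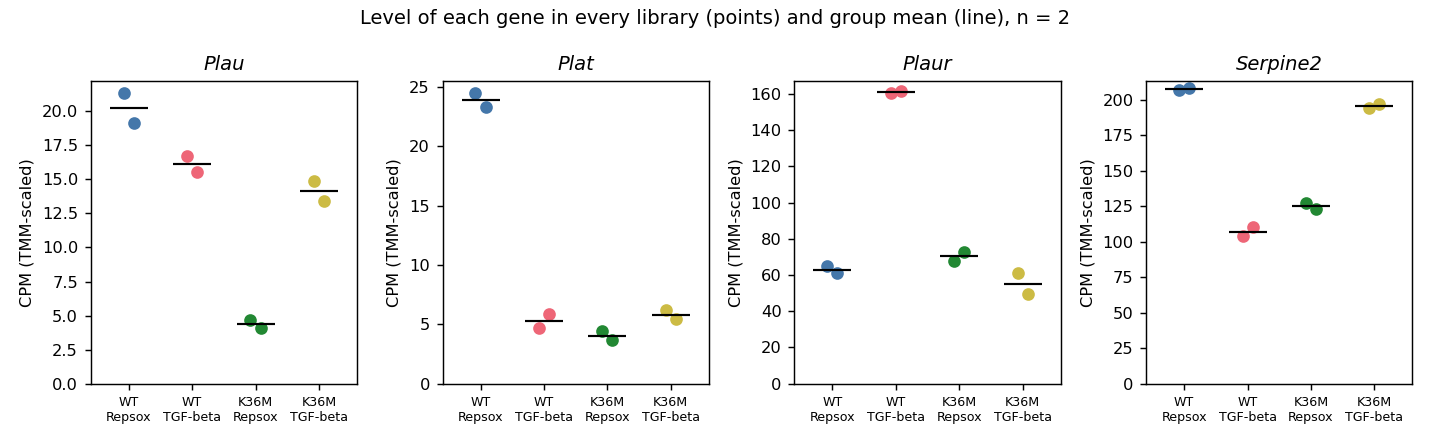
Level of each gene in TMM-scaled CPM (y axis, linear, from 0) in the 4 groups (x axis); each point is 1 library and each line the mean of 2 libraries. Plau is lowest in K36M with Repsox (4.67 and 4.10), Plat stands out in WT with Repsox (24.4 and 23.3), Plaur in WT with TGF-beta (161 in both libraries), and Serpine2 is lowest in WT with TGF-beta (104 and 110).

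Plau, the activator that works mainly at the cell surface, was read at 21.3 and 19.1 CPM in the 2 WT libraries with Repsox and at 4.67 and 4.10 CPM in those of K36M. With TGF-beta it was read at 16.7 and 15.6 CPM in WT and at 14.9 and 13.4 CPM in K36M. K36M cells with Repsox were therefore the low group, and the other 3 groups stood close together without any overlap between their libraries. Plau was 4.59-fold lower in K36M than in WT cells with Repsox (log2 fold change -2.20 ± 0.17, SE; edgeR adjusted p = 3.71e-10), a difference larger in size than that of 89.2% of tested genes. With TGF-beta the genotypes differed by -0.18 ± 0.16 on the log2 scale, which did not pass (edgeR adjusted p = 0.305) and which had the opposite sign, 0.02, when libraries were scaled by their totals alone. Within K36M, Plau rose 3.22-fold with TGF-beta (log2 fold change 1.69 ± 0.18; edgeR adjusted p = 6.94e-08). Within WT the change of -0.33 ± 0.15 did not pass (edgeR adjusted p = 0.0595), but it passed with library totals (-0.54; adjusted p = 0.00330) and without the second WT Repsox library (-0.41; adjusted p = 0.0374). The medium effect differed between the genotypes by 2.02 ± 0.24 on the log2 scale (edgeR adjusted p = 2.32e-07).

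Plat, the activator known best from fibrinolysis and from neural tissue, was read at 24.4 and 23.3 CPM in WT cells with Repsox. The other groups were read at 4.73 and 5.88 CPM (WT with TGF-beta), 4.41 and 3.70 CPM (K36M with Repsox) and 6.25 and 5.41 CPM (K36M with TGF-beta). Only WT cells with Repsox were high, and the libraries of the 2 TGF-beta groups overlapped. Plat was 5.85-fold lower in K36M than in WT with Repsox (log2 fold change -2.55 ± 0.19; edgeR adjusted p = 1.51e-10), a larger difference than that of 91.7% of tested genes, and 4.47-fold lower with TGF-beta than with Repsox in WT (-2.16 ± 0.19; edgeR adjusted p = 8.83e-10). In K36M the medium difference of 0.52 ± 0.22 did not pass (edgeR adjusted p = 0.0589), though it did with RLE size factors (0.54; adjusted p = 0.0499) and with library totals (0.53; adjusted p = 0.0493). Between genotypes with TGF-beta the difference was 0.13 ± 0.22 (edgeR adjusted p = 0.604), and -0.02 without the first WT TGF-beta library. The medium effects of the genotypes differed by 2.68 ± 0.29 (edgeR adjusted p = 7.62e-08), the largest such difference in size among the 4 genes.

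Plaur, the receptor that docks urokinase, was read at 161 CPM in both WT libraries with TGF-beta, above every other library. WT cells with Repsox had 64.9 and 61.1 CPM, K36M cells with Repsox 67.7 and 73.0 CPM, and K36M cells with TGF-beta 61.0 and 49.3 CPM. In the last of these groups the libraries lay far apart, the higher one just under the lower of the WT Repsox pair. Plaur rose 2.56-fold with TGF-beta in WT (log2 fold change 1.35 ± 0.09; edgeR adjusted p = 2.03e-11). In K36M it fell 1.27-fold (-0.35 ± 0.10; edgeR adjusted p = 0.00529), a call that was lost without the second K36M Repsox library (-0.30; adjusted p = 0.0626) or the second K36M TGF-beta library (-0.21; adjusted p = 0.149). With TGF-beta, K36M cells had 2.91-fold less Plaur than WT cells (-1.54 ± 0.10; edgeR adjusted p = 2.15e-12), whereas with Repsox the difference of 0.16 ± 0.10 did not pass (edgeR adjusted p = 0.173). The medium effects of the genotypes differed by -1.70 ± 0.14 (edgeR adjusted p = 5.42e-10), opposite in sign to the other 3 genes.

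Serpine2, the serpin that inhibits both activators and thrombin, was read at 207 and 208 CPM in WT cells with Repsox, at 104 and 110 CPM in WT with TGF-beta, at 127 and 123 CPM in K36M with Repsox and at 194 and 197 CPM in K36M with TGF-beta. The groups thus formed a high pair and a low pair, with the order of the media reversed between the genotypes. In WT, Serpine2 was 1.94-fold lower with TGF-beta (log2 fold change -0.95 ± 0.08; edgeR adjusted p = 2.04e-10), and in K36M it was 1.56-fold higher (0.64 ± 0.07; edgeR adjusted p = 2.22e-07). K36M cells had 1.66-fold less of it than WT cells with Repsox (-0.73 ± 0.07; edgeR adjusted p = 2.49e-08) and 1.83-fold more with TGF-beta (0.87 ± 0.08; edgeR adjusted p = 8.10e-10). The difference between the medium effects was 1.60 ± 0.11 (edgeR adjusted p = 2.97e-11).

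**Figure D2:**
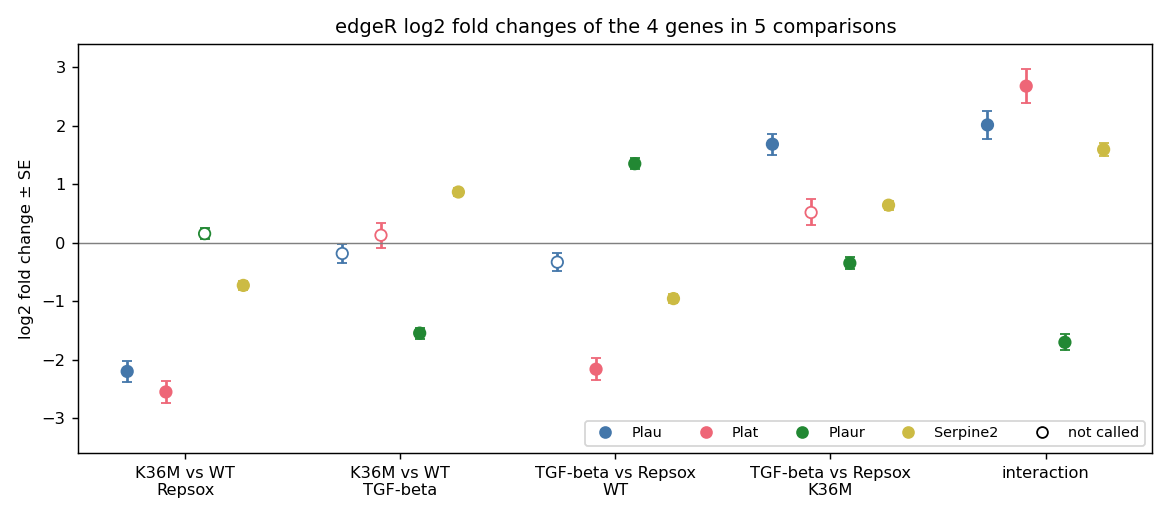
edgeR log2 fold change ± SE (y axis) of the 4 genes in the 2 genotype comparisons, the 2 medium comparisons and their interaction, which is the TGF-beta effect in K36M minus that in WT (x axis); filled points passed an adjusted p of 0.05 and open points did not. Plaur lies on the other side of 0 from Serpine2 in all 5 positions, and all 4 interaction points are filled.

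Set against all tested genes, the counts were as follows. In K36M against WT with Repsox, 3 of the 4 genes were called lower and 0 higher, where 26.9% of tested genes were called lower and 28.8% higher. With TGF-beta, 1 was called higher and 1 lower, against backgrounds of 36.4% and 33.9%. In WT, 1 rose and 2 fell with TGF-beta, against 29.0% and 33.4%. In K36M, 2 rose and 1 fell, against 24.7% and 23.6%. The interaction was called positive for 3 genes and negative for 1, where 28.5% of tested genes were called positive and 22.6% negative. Calls were thus common across the table in every comparison, and 4 genes are too few to set the members apart from it by their counts. The median log2 fold change of all tested genes was 0.04 and 0.05 between genotypes (Repsox, then TGF-beta), -0.07 and 0.01 between media (WT, then K36M), and 0.09 for the interaction. Scaling by library totals moved these medians to 0.25 for the genotypes with TGF-beta, -0.28 for the media in WT and 0.31 for the interaction. It also moved the split of calls over all genes from 4580 higher and 5271 lower to 3425 and 6709 for the media in WT, and from 4493 and 3562 to 5738 and 2482 for the interaction.

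The groups that share neither genotype nor medium were compared after the values above had been seen, to complete the order of levels. Serpine2 in K36M cells with TGF-beta lay close to WT cells with Repsox (log2 difference -0.08 ± 0.07; edgeR adjusted p = 0.354), and so did Plaur (-0.19 ± 0.10; adjusted p = 0.107). Plau was 1.43-fold lower there (-0.51 ± 0.15; edgeR adjusted p = 0.00689) and Plat 4.08-fold lower (-2.03 ± 0.19; edgeR adjusted p = 4.72e-09). So 2 of 4 genes were called lower and 0 higher, where the background was 27.0% and 26.6%. Between K36M cells with Repsox and WT cells with TGF-beta, Serpine2 was 1.17-fold higher in K36M (edgeR adjusted p = 0.0113), Plau 3.65-fold lower (3.12e-09) and Plaur 2.29-fold lower (8.93e-11), while Plat at -0.39 ± 0.22 did not pass (0.123). That made 1 higher and 2 lower, against 38.7% and 34.0% of tested genes. From high to low, Plau therefore ran WT Repsox, WT TGF-beta, K36M TGF-beta, K36M Repsox, and of these neighbours only the last pair passed the test. Plat ran WT Repsox, K36M TGF-beta, WT TGF-beta, K36M Repsox, with a passing step only after WT Repsox. Plaur ran WT TGF-beta, K36M Repsox, WT Repsox, K36M TGF-beta, with a passing step only after WT TGF-beta. Serpine2 ran WT Repsox, K36M TGF-beta, K36M Repsox, WT TGF-beta, with passing steps between all neighbours except the first pair.

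To compare levels between the genes, CPM was divided by exon length in kilobases (Serpine2 3830 bp, Plat 2531 bp, Plau 2343 bp, Plaur 1396 bp). In WT cells with Repsox the mean level per kilobase was 54.1 for Serpine2, 45.1 for Plaur, 9.44 for Plat and 8.63 for Plau. In WT cells with TGF-beta, Plaur led at 115, ahead of Serpine2 at 28.0, Plau at 6.88 and Plat at 2.10. K36M cells with Repsox had 50.4 for Plaur, 32.7 for Serpine2, 1.87 for Plau and 1.60 for Plat, and K36M cells with TGF-beta 51.1 for Serpine2, 39.5 for Plaur, 6.05 for Plau and 2.30 for Plat. Receptor and serpin transcripts stood above both activator transcripts in every group, and no neighbours in these orders overlapped between libraries. Serpine2 led in WT with Repsox and in K36M with TGF-beta, and Plaur led in the other two.

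Sums and ratios within libraries, chosen after the levels had been seen, show the same levels relative to each other. Plau and Plat together came to 18.8 and 17.4 CPM per kilobase in WT with Repsox, 8.99 and 8.97 in WT with TGF-beta, 3.73 and 3.21 in K36M with Repsox, and 8.83 and 7.88 in K36M with TGF-beta. Plau made up 48.5% and 46.9% of that sum in WT with Repsox and 53.4% and 54.5% in K36M with Repsox. With TGF-beta its share was 79.2% and 74.1% in WT and 72.1% and 72.8% in K36M, above all Repsox libraries of either genotype. The receptor exceeded its ligand 5.10- and 5.37-fold in WT with Repsox and 6.86- and 6.16-fold in K36M with TGF-beta. In WT with TGF-beta, where the receptor was high, Plaur exceeded Plau 16.2- and 17.4-fold, and in K36M with Repsox, where the ligand was low, 24.3- and 29.9-fold. The ratio of Serpine2 to both activators was 2.88 and 3.13 in WT with Repsox and 3.02 and 3.21 in WT with TGF-beta. In K36M it was 8.89 and 10.0 with Repsox and 5.74 and 6.54 with TGF-beta, above every WT library.

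**Figure D3:**
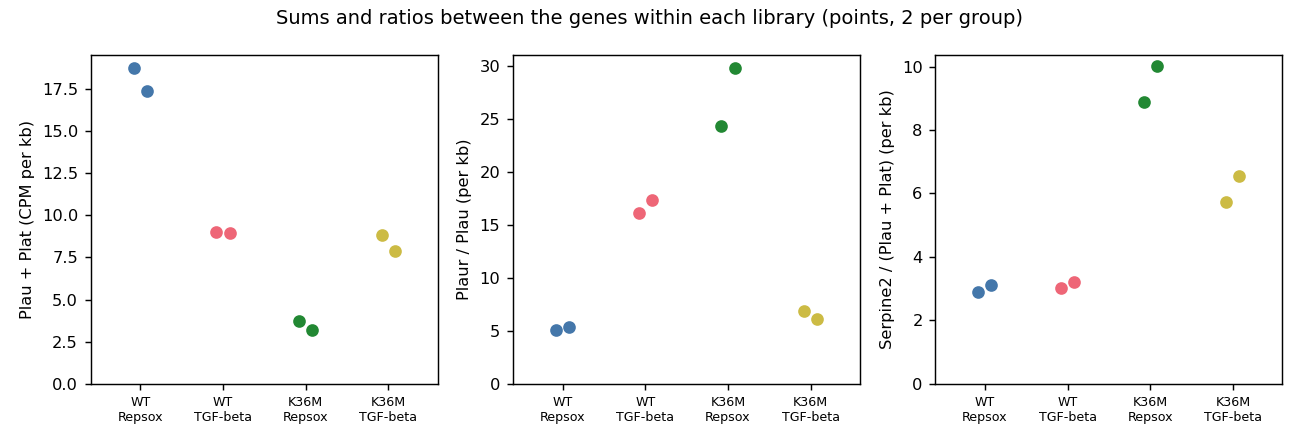
Sum of Plau and Plat in CPM per kilobase (left), ratio of Plaur to Plau (middle) and ratio of Serpine2 to that sum (right), with the 4 groups on the x axis, linear y axes from 0 and 1 point per library. The ratio of serpin to activators is at most 3.21 in WT libraries and at least 5.74 in K36M libraries.

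Other genes of the system were read from 5 lists of 75 genes, of which 73 were in the table and 56 passed the filter. The lists were drawn up with earlier results of these data known, so their counts are descriptions. In K36M against WT cells, 20 of the 56 were higher and 24 lower with Repsox (median log2 fold change -0.23) and 17 were higher and 32 lower with TGF-beta (median -0.71). Over all tested genes, 28.8% were called higher and 26.9% lower with Repsox, and 36.4% and 33.9% with TGF-beta. With TGF-beta against Repsox, 27 were higher and 20 lower in WT (median 0.41) and 30 higher and 12 lower in K36M (median 0.52). The shares over all tested genes were 29.0% higher and 33.4% lower in WT, and 24.7% and 23.6% in K36M. For the interaction, 17 were positive and 22 negative (median 0.06), a majority that turned with library totals, to 20 positive and 18 negative. In the main fit 28.5% of all tested genes were called positive and 22.6% negative. The calls over all tested genes moved the same way, from 4493 positive and 3562 negative to 5738 and 2482 with library totals. With the genes unread in a group (A2m, Mmp3 or Fgg) set at their bound from a floor of 3 counts, the medians became -0.20 and -0.68 for the genotypes (Repsox, then TGF-beta) and 0.43 for the media in K36M. The plasminogen gene (Plg) had 2 counts in all 8 libraries together, so the transcript for the substrate of both activators was at the limit of detection. Whether plasminogen protein was present in the cultures was not measured. Vtn, which encodes the matrix ligand of the urokinase receptor, had no count in any library.

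Among receptors and docking proteins for plasminogen, 3 of 6 were higher and 2 lower with TGF-beta in WT, and 3 were higher and 0 lower in K36M. Background shares were 29.0% higher and 33.4% lower in WT, and 24.7% and 23.6% in K36M. S100a10, which forms a plasminogen-binding complex with annexin A2, rose by 1.21 on the log2 scale in both genotypes (edgeR adjusted p = 3.76e-11 in WT and 1.53e-10 in K36M). Its partner Anxa2 rose from 462 ± 1.77 to 1240 ± 7.03 CPM (SD) in WT and was read at 579 ± 4.80 and 605 ± 8.11 CPM in K36M, a step that did not pass (edgeR adjusted p = 0.381). The interaction passed for Anxa2 at -1.36 and not for S100a10 at -0.00. Eno1, a glycolytic enzyme that also binds plasminogen at the surface, was read at 855 CPM in WT and 875 CPM in K36M with Repsox, and at 714 and 1294 CPM with TGF-beta; how reads shared with its processed copies in the genome were counted is not given in the sources used here, and their part in this level was not tested.

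Receptors that clear activators or partner the urokinase receptor included 9 of 15 genes higher and 4 lower with TGF-beta in WT, and 9 higher and 6 lower in K36M. Across all tested genes these shares were 29.0% and 33.4% in WT, and 24.7% and 23.6% in K36M. Lrp1, the endocytic receptor that takes up complexes of activators with serpins, was read at 1685 ± 182 CPM (SD) in WT with Repsox, 4888 ± 252 in WT with TGF-beta, 490 ± 4.69 in K36M with Repsox and 1622 ± 4.94 in K36M with TGF-beta. It was lower in K36M by -1.78 with Repsox and -1.59 with TGF-beta on the log2 scale, and higher with TGF-beta by 1.54 in WT and 1.73 in K36M. Its interaction of 0.19 ± 0.09 did not pass (edgeR adjusted p = 0.0779), unlike those of the 4 genes above. Itgb1, the integrin chain that partners the urokinase receptor, was like Plaur highest in WT with TGF-beta, at 3140 ± 29.0 CPM against 322 to 506 CPM as means of the other groups. Igf2r, which binds plasminogen and the urokinase receptor, moved the other way, lower with TGF-beta in both genotypes (-0.43 in WT and -0.32 in K36M) and higher in K36M in both media (0.46 and 0.57).

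The list of inhibitors had 8 tested genes, among them Thbd, which acts on thrombin and is no inhibitor of the activators. Of these, 2 were higher and 4 lower in K36M with Repsox, and 2 higher and 5 lower with TGF-beta. Background shares were 28.8% higher and 26.9% lower with Repsox, and 36.4% and 33.9% with TGF-beta. Serpinb8, a serpin of furin-type and trypsin-like proteases, was read at 10.3 ± 1.08 and 85.8 ± 5.34 CPM in WT (Repsox, then TGF-beta) and at 2.87 ± 0.15 and 16.1 ± 0.28 CPM in K36M. It therefore rose with TGF-beta in both genotypes, by 3.05 and 2.49 on the log2 scale. Serpinb6a, an intracellular serpin, likewise rose with TGF-beta (1.04 in WT and 0.52 in K36M) and was lower in K36M (-0.55 and -1.07). Tfpi, the inhibitor of the tissue factor pathway, rose with TGF-beta in WT (28.1 to 48.5 CPM) and fell in K36M (54.4 to 30.1 CPM), with an interaction of -1.64 (edgeR adjusted p = 7.20e-09). Its sign pattern was that of Plaur in the media comparisons. Serpinb2, an inhibitor of both activators, had 6 and 7 counts in WT with Repsox, 8 and 14 in WT with TGF-beta and 0 in all 4 K36M libraries, below the filter.

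The protease list had 16 tested genes, among them F3 (tissue factor), which is not itself a protease. Of these, 5 were higher and 9 lower in K36M with Repsox, and 4 higher and 9 lower with TGF-beta. Across all tested genes these shares were 28.8% and 26.9% with Repsox, and 36.4% and 33.9% with TGF-beta. Mmp14, a membrane metalloprotease that activates pro-Mmp2, was read at 140 ± 7.04 and 689 ± 41.1 CPM in WT and at 66.3 ± 0.32 and 151 ± 5.31 CPM in K36M (Repsox, then TGF-beta). Mmp2, the gelatinase it activates, ran in parallel at 91.5 ± 10.8 and 291 ± 29.5 CPM in WT and 18.7 ± 0.64 and 87.3 ± 5.07 CPM in K36M. Both were thus lower in K36M and higher with TGF-beta in every comparison. Prss23, a secreted serine protease, did the same with larger genotype differences (-3.20 with Repsox and -2.95 with TGF-beta). Fap, a serine protease of activated fibroblasts that was also on the fibroblast list, was lower in K36M with Repsox (-2.45) and lower with TGF-beta in WT (-2.97), on 43 and 36 counts in WT with Repsox, 2 and 7 in WT with TGF-beta, 8 and 6 in K36M with Repsox and 0 and 1 in K36M with TGF-beta. Of the cathepsins, lysosomal proteases that cells can also secrete, Ctsd was lower in K36M in both media (-0.26 with Repsox and -2.03 with TGF-beta). Ctsl was higher in K36M with Repsox (0.47) and lower with TGF-beta (-1.78). Ctsb was lower in K36M with TGF-beta (-0.74), while with Repsox its difference of -0.05 did not pass (edgeR adjusted p = 0.539).

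Of 11 substrates of plasmin or the activators, 5 were higher and 4 lower with TGF-beta in WT, and 7 higher and 2 lower in K36M. The background was 29.0% higher and 33.4% lower in WT, and 24.7% and 23.6% in K36M. Fn1, the matrix protein fibronectin, was read at 2392 ± 245 and 7943 ± 209 CPM in WT and at 1779 ± 46.4 and 2075 ± 103 CPM in K36M (Repsox, then TGF-beta). Pdgfc, a growth factor activated by Plat, was lower in K36M by -3.08 with Repsox and by -4.02 with TGF-beta. It rose with TGF-beta in WT (13.6 to 85.3 CPM) while Plat fell there. Bdnf, whose precursor plasmin can cleave, was lower in K36M by -3.87 and -3.82. F2r, the thrombin receptor, rose with TGF-beta in WT (1.01) and fell in K36M (-1.18), while F2rl1, its relative that is cut by trypsin-like proteases, fell from 106 ± 2.85 to 8.81 ± 0.42 CPM in WT and from 159 ± 4.08 to 117 ± 1.35 CPM in K36M. Lamc1, a laminin chain, fell with TGF-beta in WT (-0.53) and rose in K36M (0.67), the directions of Serpine2.

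**Figure D4:**
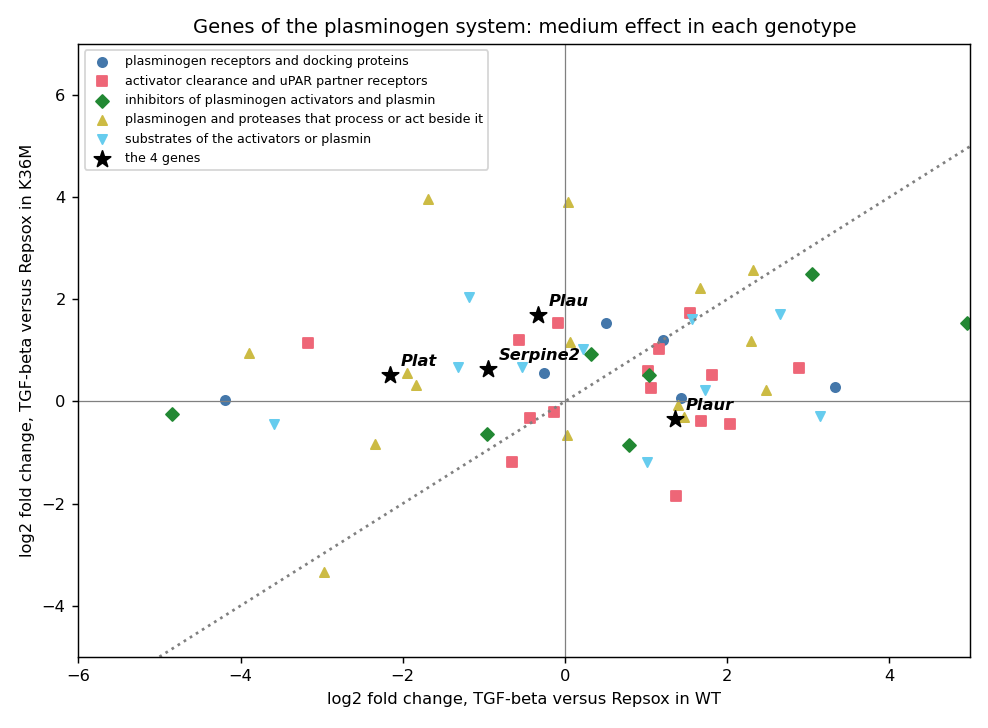
log2 fold change with TGF-beta against Repsox in WT (x axis) and in K36M (y axis) for 53 tested genes of the 5 lists (symbols) and the 4 genes (stars); the dotted line marks equal effects, and 3 genes unread in a group are left out. By sign alone, called or not, 24 of the 53 lie above 0 on both axes. Below 0 in WT and above 0 in K36M are 12, where Plau, Plat and Serpine2 also lie, and 9 are above 0 in WT and below 0 in K36M, where Plaur lies. The Plau effect in WT and the Plat effect in K36M did not pass. Shares of all tested genes by sign are not reported here.

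Markers of other cell states also moved with the groups. In these bulk libraries fewer cells of a type and less RNA per cell cannot be told apart. The 13 fibroblast markers summed to 3511 to 3789 CPM in WT with Repsox, 10652 to 11918 in WT with TGF-beta, 210 to 244 in K36M with Repsox and 912 to 925 in K36M with TGF-beta. The 10 pluripotency markers summed to 1345 to 1568, 32.5 to 35.3, 1991 to 1998 and 1041 to 1052 CPM in that order, and the 8 epithelial markers to 2095 to 2215, 130 to 170, 4902 to 5101 and 3903 to 4049 CPM. Within the fibroblast list 0 markers were higher and 13 lower in K36M with Repsox, against 28.8% and 26.9% of all tested genes. With TGF-beta in WT, 5 were higher and 7 lower, against 29.0% and 33.4%. Lum was at 0 in WT with TGF-beta, and Vim and Col1a2 were highest there. K36M with Repsox, the group with the lowest mean Plau and Plat, was thus also lowest in summed fibroblast and highest in summed epithelial and pluripotency markers. Its Plat difference from either TGF-beta group did not pass in the main fit. WT with TGF-beta was highest in the summed fibroblast markers but not in the activators. That sum hides the 7 of 13 markers called lower than in WT with Repsox (median log2 fold change of the list -0.89). Plat averaged 5.31 CPM in WT with TGF-beta against 23.9 in WT with Repsox, and Plau 16.1 against 20.2, a step that did not pass. Of the other lists, trophoblast markers were at 6.97 to 7.82 CPM in WT with TGF-beta and between 263 and 847 CPM elsewhere, neural markers reached 1663 to 1855 CPM there and 96.7 to 275 CPM elsewhere, endoderm markers lay between 622 and 1138 CPM, and endothelial markers between 66.1 and 123 CPM. Most neural counts came from Nes (39015 in all libraries) and Ncam1 (15662), while Pax6, Sox10 and Neurod1 had 80, 159 and 197. With TGF-beta in WT, 3 of 6 tested neural markers were called higher and 2 lower. Of 8 tested endothelial markers, 1 was called higher and 6 lower in that comparison. Most endoderm counts came from Lamb1 (66068 in all libraries) and Lama1 (14168), while Gata4 and Gata6 had 312 and 311. Of 9 tested endoderm markers, 1 was called higher and 6 lower with TGF-beta in WT. Macrophage and blood markers lay between 18.9 and 79.5 CPM, with 9 counts of the defining gene Ptprc in all libraries together and none in K36M with Repsox; Tie1, Emcn, Sox17 and Foxa2 of the endothelial and endoderm lists were at 0 in WT with TGF-beta. Which of these states carried the transcripts of the 4 genes was not tested.

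The response to the media themselves was read from 14 genes known to answer to TGF-beta. With TGF-beta, 10 of them were higher and 3 lower in WT, and 11 were higher and 2 lower in K36M. Over all tested genes the shares were 29.0% and 33.4% in WT, and 24.7% and 23.6% in K36M. Ctgf, a standard target, rose from 43.1 ± 3.37 to 2074 ± 32.8 CPM in WT and from 25.8 ± 4.91 to 154 ± 2.52 CPM in K36M, a step that differed between genotypes by -3.00 ± 0.13 (edgeR adjusted p = 1.77e-14). The other gene the naming rule took from that list, Col4a1, did not pass in WT (-0.07; edgeR adjusted p = 0.433) and fell in K36M (-0.54). Among 12 genes of AP-1 and ETS factors, which act on activator promoters in other cells, 7 were higher and 3 lower with TGF-beta in WT. In K36M 7 were higher and 1 lower with TGF-beta. Between genotypes, 4 were higher and 8 lower in K36M with Repsox, and 3 higher and 7 lower with TGF-beta. Background shares between genotypes were 28.8% higher and 26.9% lower with Repsox, and 36.4% and 33.9% with TGF-beta.

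The patterns most like each gene were sought over the 8 libraries among 10884 tested genes of at least moderate level, by Pearson's r of log2 CPM. The libraries fall into 4 pairs, so the values mainly compare 4 group levels, and no test was made. Serpine2 was most like Fndc3c1 (r = 0.9859), Nipsnap1 (0.9854) and Snhg7 (0.9847). Plau was closest to Zmat2 (0.9936), H3f3a (0.9889) and Ptrf (0.9867), and Plaur to Klc1 (0.9942), Cd151 (0.9915) and Actb (0.9912). Plat was closest to Thy1 (0.9947), a fibroblast surface marker, to Stc1 (0.9929) and to Col6a2 (0.9865). Thy1 was read at 551 ± 1.88 CPM in WT with Repsox and at 28.5 ± 3.88, 14.3 ± 0.59 and 37.3 ± 0.85 CPM in WT with TGF-beta, K36M with Repsox and K36M with TGF-beta. Between the 4 genes themselves, r ran from -0.813 for Serpine2 and Plaur to 0.687 for Serpine2 and Plat and 0.657 for Plau and Plat, so none of them was near-identical in pattern to another.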

How the data were processed

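RNA was measured by sequencing of rRNA-depleted libraries (HiSeq2500, per the labels' protocols). The authors deposited whole-number read counts per gene, made with STAR 2.5.0, HTSeq 0.11.2 and mm9 per the submitters' processing notes. The annotation, the strand setting and filters are not given in the sources used here. All 8 count columns were used and none was left out. From the counts, edgeR 4.0.16 in R 4.3.3 (filterByExpr, TMM, quasi-likelihood F test, 4 group means over 8 libraries, Benjamini-Hochberg adjustment over 15789 genes) gave log2 fold changes. Their SE is the fold change divided by the square root of F. Each test joined 4 residual degrees of freedom with 17.5 prior ones from all tested genes, so small p-values rest largely on shared spread. Chi-square per degree of freedom between the paired libraries was 9.09 in WT with Repsox and 2.75 in WT with TGF-beta. In K36M it was 2.70 with Repsox and 5.43 with TGF-beta, while the fit used 1 spread per gene for all groups. The pipeline was tested on simulated counts with a common spread and few changed genes, a simpler setting than these data. Total counts of 10928302 to 15594217 per library limit the genes with few counts. Alternatives were other scalings, filters, a replicate block, DESeq2 1.42.0 (Wald test), a fit on the compared libraries alone and leaving out each library.

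The members and lists were chosen with earlier results of these data known, and the crossed comparisons and ratios after values were seen. Beside the 4 genes, the rule named the 3 most abundant tested genes of each pathway list, those called in all 4 pairwise comparisons with 1 direction per kind of comparison, the 2 most abundant of each other list and the 3 most alike genes per member. Of the marker and context genes so named, only some are given with values. Serpinb2, Plg, Vtn and the markers given as at or near 0 were named outside the rule, after their values were seen. Exon lengths come from GENCODE vM1. Plgrkt and Serpina5 were not analysed here, and some other genes of the system are not reported here.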

Additional observations from a re-analysis of the deposited data

Results flagged for a closer look

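For each of the 4 genes the response to TGF-beta against Repsox differed between the genotypes by an interaction test across all genes (edgeR quasi-likelihood, adjusted over 15789 genes). The TGF-beta effect in K36M minus that in WT was 1.60 on the log2 scale for Serpine2, 2.02 for Plau, -1.70 for Plaur and 2.68 for Plat. Serpine2 fell in both WT libraries and rose in both K36M libraries relative to the Repsox libraries of the same genotype, and Plaur did the reverse. For Plau only the K36M effect passed on its own, and for Plat only the WT effect did. The interaction was called for 28.5% of tested genes as positive and 22.6% as negative.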

How the results depend on the processing

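Of 232 alternative values for the 20 gene-by-comparison results, 224 kept direction and side of the threshold, and counts of called genes stayed within 1.5 times under every alternative run. The exceptions were as follows. The Plat medium effect in K36M passed with RLE size factors (0.54, adjusted p 0.0499) and library totals (0.53, adjusted p 0.0493). With library totals the Plau difference between genotypes under TGF-beta changed sign (0.0162), and the Plau medium effect in WT passed (-0.54). Leaving out 1 library at a time gave -0.41 to -0.25 for the latter, -0.0190 to 0.30 for the Plat genotype difference under TGF-beta, and -0.51 to -0.21 for the Plaur medium effect in K36M. Leaving out a library leaves its group with 1 sample, assumed to vary like the other groups. The causes were not tested. A replicate block changed no call of the 4 genes (interactions 1.60, 2.01, -1.70 and 2.68 for Serpine2, Plau, Plaur and Plat). Deviations of same-numbered libraries correlated between -0.02 and 0.032, so they showed little deviation in common. These values cannot tell whether same-numbered libraries share an animal, culture or batch. Plau and Plat, with 46 to 363 counts per library, have the widest errors. Group levels held less well than the calls: of 32 alternative values for them, 22 stayed within 1 SD. The levels that moved further were 5 for Serpine2, 3 for Plaur, 1 for Plau and 1 for Plat.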

Other observations

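Some genes of the lists fell outside the naming rule and were picked after their values were seen. The 3 surface proteins St14, Hpn and Cdcp1, found on epithelial cells, were lowest in WT cells with TGF-beta. St14 (matriptase, which can activate pro-urokinase) was read at 203, 57.1, 319 and 396 CPM as group means in WT with Repsox, WT with TGF-beta, K36M with Repsox and K36M with TGF-beta. Hpn (hepsin) was read at 4.19, 0.301, 26.2 and 50.5 CPM, and Cdcp1, a surface protein that plasmin cleaves, at 59.5, 3.21, 175 and 178 CPM. K36M cells were above WT cells for each of them in both media (edgeR adjusted p at most 8.38e-07).

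Mmp9, the gelatinase that plasmin can activate, was read at 3.96, 4.15 and 2.87 CPM in the first 3 groups and at 44.2 ± 4.79 CPM (SD) in K36M cells with TGF-beta, where it rose by 3.90 ± 0.23 on the log2 scale against Repsox (edgeR adjusted p = 2.88e-12). Mrc2, a collagen receptor that forms a complex with the urokinase receptor, was lower in K36M by -3.08 with Repsox and -1.44 with TGF-beta. Thbd, which turns thrombin towards protein C, was lower in K36M by -4.50 and -4.19, on 9 to 18 counts per K36M library.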
